A study of Mus musculus with 4 samples.

Results

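Kcnk3 was 1 of 11229 genes with a covered SNP in gonadal adipose tissue of F1 mice, and it was chosen because its exonic reads carried the DBA/2J base and not the C57BL/6J base. All SNPs listed under Kcnk3 were taken, in exons and introns, and this gave 1 SNP of the 305528 that had reads. The mice came from reciprocal crosses of C57BL/6J (B) and DBA/2J (D), so every animal held 1 B and 1 D copy of each autosomal gene, and all were on chow. RNA was taken from the gonadal fat pad and pooled, and 4 pools were sequenced, namely BxD female, BxD male, DxB female and DxB male, with the mother's strain named first. The labels give an age of 8 weeks, and the methods give a later one. For 2 pools the label and the file disagree: the pool called BxD male here is labelled DxB female, and the pool called DxB female here is labelled BxD male. The exonic read totals that the study lists by cross and sex match the file names, and by that list DxB female is the smaller pool. By number of animals, 1 pool held 2 and the others 3. The labels instead give the 2 animals to the pool called BxD male here. Pools take their names from the files throughout, and each value is read under both identities where cross or sex enters.

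Kcnk3 encodes TASK-1, an acid-sensitive potassium channel of the K2P family. K2P channels are open at rest and let potassium leave the cell, which sets the resting membrane potential, and TASK-1 closes when the outside of the cell turns acid. The channel is known from the heart, the carotid body and the smooth muscle of lung arteries, and in fat it is known as a gene of brown and beige adipocytes. In an F1 mouse both copies of a gene share the same nucleus, so unequal read counts from the 2 strains' alleles measure unequal RNA, or unequal detection of the alleles, within the same cells.

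The SNP lies at position 30925772 of chromosome 5 (mm9), in the 3′ UTR of Kcnk3. In the GENCODE annotation Kcnk3 (ENSMUSG00000049265.6) runs on the plus strand from 30890543 to 30927643, with 2 exons joined across an intron of 33291 bases, and it encodes 409 amino acid codons. The SNP is in the second exon, 562 bases past the stop codon in a 3′ UTR of 2433 bases, and no other annotated gene spans it. The 29 bases around it, chr5:30925758-30925786 on the plus strand, are shown because every allele count of Kcnk3 rests on the base in capitals. The change from the B to the D allele is T15C, counted from 1 at the 5′ end of the printed stretch.
Kcnk3 B allele: agtcccacctggctTtcatccccagccat
Kcnk3 D allele: agtcccacctggctCtcatccccagccat

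The B base is also the base of the mm9 genome. Each of the 50 stretches of 50 bases that hold this SNP was compared with all of mm9, once with each allele's base and with up to 3 mismatches allowed, which is the limit that was used for the alignment. All 50 matched 1 place only, with the B base as with the D base. No other SNP with reads lay within 50 bp, so no second listed difference fell in the same reads. The genome of D itself was not searched.

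At this SNP the B allele had 0 reads in each of the 4 pools. The D allele had 53 reads in BxD female, 72 in BxD male, 71 in DxB female and 35 in DxB male. The groups of B and D values did not overlap, which the choice of the gene fixed, so the counts are given as a description with no test. Over the pools the D allele had 231 of 231 reads (57.8 ± 17.5 per pool, SD, n = 4), a share of 100% with an exact 95% binomial interval from 98.4 to 100%. That interval leaves room for a B share of up to 1.58%. By the floor of 3 counts, which is a one-sided limit for a count of 0, the B share was at most 1.30% and the D allele at least 77.0-fold higher over the 4 pools. Pool by pool, the same floor allows a B share of up to 5.66% in BxD female, 4.17% in BxD male, 4.23% in DxB female and 8.57% in DxB male. Mates of a pair were counted as separate reads, so 1 fragment may be counted more than once, and the intervals and floors cover counting error only.

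**Figure D1:**
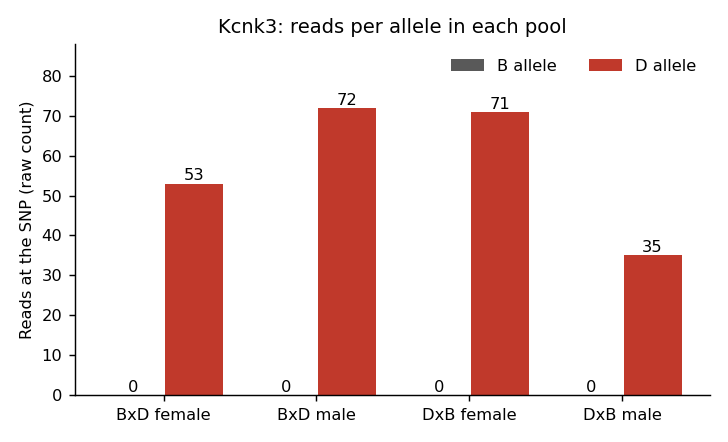
Raw reads at the Kcnk3 SNP (vertical axis) in each of the 4 pools (horizontal axis), with the B allele in grey and the D allele in red. The B allele has 0 reads in every pool and the D allele has 35 to 72.

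Leaving out a pool could not change the D share of 100%, since B had 0 reads in each, so only the read sums are given. With DxB female left out, the D allele had 160 reads and the B allele 0, and with BxD male left out the D allele had 159, the smallest sum of any 3 pools. No intronic SNP of Kcnk3 had a read in any pool. A test of the intronic counts had been planned as the check that the choice of the gene did not use, and it gave no value. Whether other SNPs of Kcnk3 are also read from D alone therefore could not be asked from a second position.

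Which parent passed on the D copy differed between the pools, and the D allele alone was read in either case. By file name, the pools with a D father had 53 and 72 D reads and the pools with a D mother had 71 and 35. By label, the pools with a D father had 53 and 71 and those with a D mother 72 and 35. For sex, females had 53 and 71 D reads by file name and 53 and 72 by label, and males had 72 and 35 or 71 and 35. The 2 values of each kind overlapped in every one of these splits. With 2 pools against 2 the smallest p an exact two-sided permutation test can give is 0.3333, so no comparison of crosses or sexes was tested.

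The level of Kcnk3, both alleles summed per 1000000 allele specific reads (RPM), was 9.52 RPM in BxD female, 13.6 in BxD male, 13.5 in DxB female and 8.30 in DxB male (11.2 ± 2.73, SD, n = 4). The highest pool stood 1.64-fold above the lowest. Divided by exonic reads alone the mean was 12.9 ± 3.12 per 1000000 exonic reads. The pools held between 4219333 and 5569347 allele specific reads, and the pool with the lowest Kcnk3 level, DxB male, was also the shallowest. In bulk tissue, fewer cells of a type and less RNA per cell cannot be told apart.

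Kcnk3 is known from brown and beige fat, so its level was set beside other genes of those cells pool by pool. Ucp1, the uncoupling protein that makes heat in brown fat, had 65 B and 83 D reads in BxD female, 0 and 1 in BxD male, 752 and 948 in DxB female and 1 and 3 in DxB male. Its level was thus 324 RPM in DxB female against 26.6, 0.189 and 0.948 in BxD female, BxD male and DxB male. Cidea, a lipid droplet protein of brown fat, reached 21.2 RPM in DxB female against 1.70 to 3.79 in the others. Otop1, a proton channel found in brown fat, reached 8.00 RPM in DxB female against 0 to 0.948. Cidea and Otop1 were singled out after their values were seen. Ppara was also highest in DxB female, at 23.3 RPM against 8.80 to 14.5 in the others. Gyk, with 18 reads in all, and Dio2, with 8, were highest there too. Not every gene of the list was highest in DxB female. Adrb3, the beta adrenergic receptor through which cold acts on fat, was at 1074 RPM in BxD female, 2716 in BxD male, 1349 in DxB female and 2710 in DxB male, and Ebf2, a transcription factor of brown fat precursors, was highest in BxD female at 4.31 RPM against 1.66 to 2.45. Kcnk3 did not stand out in DxB female: it was 13.5 RPM there and 13.6 in BxD male, the pool with the lowest Ucp1. These 2 levels rest on 71 and 72 reads and cannot be ranked. Prdm16, a transcriptional regulator of brown fat identity, went from 19.2 to 32.6 RPM, with its highest value again in DxB female. Levels on this scale depend on the SNPs a gene has and are compared here between pools, not between genes.

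**Figure D2:**
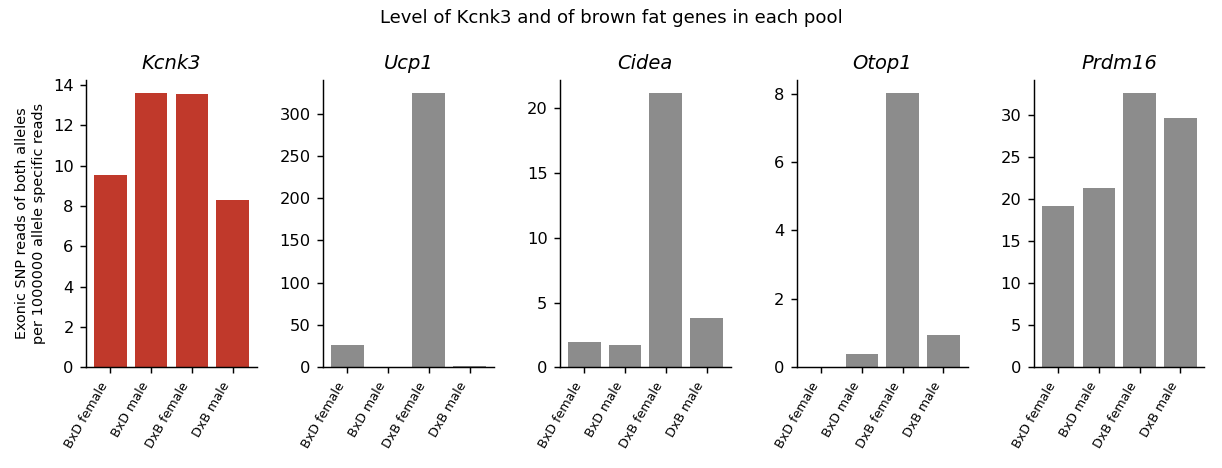
Exonic SNP reads of both alleles in RPM (vertical axes, each from 0) in the 4 pools (bars) for Kcnk3, Ucp1, Cidea, Otop1 and Prdm16. Ucp1, Cidea and Otop1 are highest in DxB female by a wide gap, while Kcnk3 is 13.6 in BxD male and 13.5 in DxB female.

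Markers of the labelled tissue were present in every pool. Of 15 white adipocyte markers, 6 had exonic SNP reads, 888856 in all, among them Lpl, the lipase that frees fatty acids from lipoproteins, and Lep, the hormone leptin. Their summed level ran from 36163 to 52406 RPM, highest in DxB female. Of the 24 genes listed for brown or beige fat, 12 had exonic reads, and their sum, most of it from Adrb3, was 1136 RPM in BxD female, 2754 in BxD male, 1763 in DxB female and 2763 in DxB male, so DxB female was not the highest. The macrophage marker Cd68 was the only one of 6 listed symbols with exonic reads, where Adgre1 and its older name Emr1 are both listed. It ran from 183 to 391 RPM, lowest in DxB female. Of 5 endothelial markers, 2 had exonic reads, with a sum of 58.9 to 83.1 RPM, and 3 of 7 muscle markers had exonic reads, with 389 to 602. None of these ranges placed BxD male and DxB female together above the other pools, as Kcnk3 did, except that of white adipocytes, whose values were 43422 and 52406 there against 36163 and 43185. Most of the white adipocyte sum came from Lpl, with 665481 of the 888856 reads. Of the 6 white adipocyte markers, Lpl alone had both pools above the others, and Lep was lowest in BxD male at 784 RPM. The part of these cell types in the Kcnk3 level was not tested.

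Across all 7988 genes with exonic reads, the D and B alleles were compared in the 8 allele libraries with edgeR's quasi-likelihood test, and a gene was called where its p, adjusted by Benjamini-Hochberg, was under 0.05. By that rule 17.7% of genes were called in either direction, 4.84% with D higher and 12.9% with B higher. With the pool as a block the calls rose from 1414 to 2175 and those with D higher from 387 to 879. Kcnk3 entered this fit, and its own value is not given because the gene was chosen on the same counts.

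The genes around Kcnk3 were then read for the same lean toward D, and none was called with D higher by edgeR or DESeq2. At an unadjusted p under 0.05 there were 4, all with B higher. Within 1 Mb on each side there were 15 SNPs with reads, that of Kcnk3 included, against a median of 435 (quartiles 197 and 1004) around 7992 genes, and 3.78% of genes had as few. Of the 6 neighbouring genes with exonic reads, 3 were called, all with B higher, where 12.9% of all genes were. The neighbour with reads closest to Kcnk3 is Cib4, of a family of calcium and integrin binding proteins, whose intronic SNP 79965 bases before that of Kcnk3 had 8 B and 9 D reads, a D share of 52.9% (27.8 to 77.0%).

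The 2 deepest of the called neighbours were read from B alone or nearly so, at 1 SNP each. Zfp513, a zinc finger transcription factor gene 577080 bases beyond Kcnk3, had 98, 81, 146 and 60 B reads in BxD female, BxD male, DxB female and DxB male, and 0 D reads in each. Over the 4 pools B was at least 128-fold higher against a floor of 3 counts (edgeR adjusted p = 7.95e-06). Ube3c, a ubiquitin ligase gene 924065 bases before Kcnk3, had 72, 61, 59 and 49 B reads in the same order and 1 D read in all, in BxD female (log2 D to B ratio -7.23, SE 0.46, adjusted p = 3.66e-07). In both genes the B and D values did not overlap. At Kcnk3 the D base was seen in the RNA of every pool, while at Zfp513 it was seen in none, and whether D mice carry the listed base there was not checked here. The third, D5Wsu178e, 331041 bases before Kcnk3, had 10 B and 0 D reads (at least 3.33-fold, adjusted p = 0.0394), and its call was lost with DESeq2, with the pool as a block (adjusted p = 0.136) and with any 1 pool left out.

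Other neighbours had reads from both alleles. Ift172, needed for transport inside cilia, had 233 B and 180 D reads at an exonic SNP 642324 bases beyond Kcnk3, a D share of 43.6% (38.7 to 48.5%) with a log2 ratio of -0.24 (SE 0.20, adjusted p = 0.529). Its intronic SNP had 15 B and 9 D reads. Tyms, the thymidylate synthase gene, had 11 B and 7 D reads over 3 SNPs, and at 1 of these, with 1 read each, the same base is listed for both strains. Slc5a6, a vitamin transporter gene, had 4 B and 0 D reads. Zfp512 had intronic reads only, and at 2 of its 3 SNPs the same base is listed for both strains, so those counts are equal by construction. Farther out, among the 5 nearest genes with at least 10 exonic reads on each side, Pisd, which makes phosphatidylethanolamine in mitochondria, had 769 B reads and 1 D read (log2 ratio -8.89, adjusted p = 7.13e-09). Its intronic reads did not share this lean, with 47 from B and 42 from D. Actr3b, Xrcc2, Fam53a and Tacc3 had D shares of 42.3 to 59.4% and were not called.

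**Figure D3:**
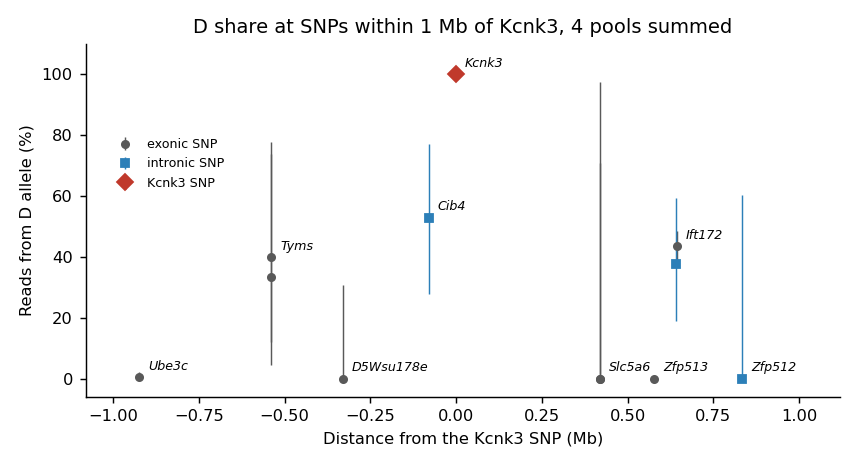
Share of reads from the D allele, 4 pools summed (vertical axis, %), at each SNP within 1 Mb of Kcnk3 whose bases differ between the strains, by distance from the Kcnk3 SNP (horizontal axis, Mb). Bars are exact 95% binomial intervals, circles are exonic and squares intronic SNPs. Kcnk3 (diamond) is at 100%, Ube3c and Zfp513 are at or near 0%, and Cib4 and Ift172 lie at 37.5 to 52.9%.

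The other channels of the K2P family were little covered in this tissue. Of 13 family members besides Kcnk3, 5 had exonic reads, and 0 were called, where 17.7% of all genes were. Of their 96 reads, 48 came from Kcnk5, or TASK-2, with 24 from each allele, and its only exonic SNP lists the same base for both strains, so it carries no allele information. At an unadjusted p under 0.05 there was 1, Kcnk15, and neither DESeq2, which gave an adjusted p for 4 of the 5, nor edgeR with pools as blocks called any. Kcnk15, which encodes TASK-5, the relative of TASK-1 that gives no current of its own in standard assays, had 0 B and 6 D exonic reads and 0 B and 4 D intronic reads (edgeR adjusted p = 0.0654 for the exonic counts). It was thus the one other family member read from D alone, at least 2-fold against the floor of 3 counts over the pools. Kcnk7, a member without known current, had 7 B and 13 D reads (log2 ratio 1.02, SE 0.77, adjusted p = 0.460). Kcnk13, or THIK-1, had 10 B and 9 D reads. Kcnk12, or THIK-2, was read from B alone, with 3 B and 0 D reads (adjusted p = 0.335). The median log2 ratio of the 4 without Kcnk5 was 0.49, on 48 reads, against -0.02 for all genes.

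Partner proteins take part in the trafficking of TASK channels such as TASK-1. Of 10 of these that were listed, 6 had exonic reads and 1 was called, a share near the 17.7% of all genes. Sfn, the sigma member of the 14-3-3 proteins that bind the tail of the channel, had 86 B and 19 D reads (log2 ratio -2.04, SE 0.36, adjusted p = 0.00169), so B was higher. S100a10, also called p11, had 8803 B and 8740 D reads (log2 ratio 0.12, SE 0.13, adjusted p = 0.615). Ywhae, the epsilon 14-3-3 protein, had 7375 B and 8446 D reads, and Copb1, a subunit of the COPI coat that returns proteins to the endoplasmic reticulum, had 1152 and 1299. Neither was called without a block (adjusted p = 0.112 and 0.0986), and both were called with D higher with the pool as a block (adjusted p = 0.00294 and 0.0183), which took the list from 1 call to 3. Ywhaq, the theta 14-3-3 protein, had 73 B and 91 D reads. The median log2 ratio of the 6 was 0.21.

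Of the 24 brown or beige fat genes, 12 had exonic reads and 0 were called in the edgeR fit, where 17.7% of all genes were, with 1 at an unadjusted p under 0.05. DESeq2 called 0 of the 8 for which it gave an adjusted p. The median log2 ratio of the 12 was -0.34. Only 8 of the 12 had at least 10 exonic reads and some had 1, so this median rests in part on very small counts. It also includes Gyk, which lies on the X chromosome. Males carry only the mother's X, so in male pools Gyk has no second allele to compare. The 1 gene at an unadjusted p under 0.05 was Otop1, on chromosome 5 as Kcnk3 is, at position 38691324. It had 0 B reads in every pool, and its D reads were 0 in BxD female, 2 in BxD male, 42 in DxB female and 4 in DxB male. Over the pools this was at least 16-fold against a floor of 3 counts (adjusted p = 0.0703). Its intronic SNPs had 0 B and 6 D reads. Otop1 thus matched Kcnk3 in being read from D alone, but most of its reads came from DxB female, where those of Kcnk3 came from all pools. With the pool as a block Otop1 was called (adjusted p = 0.0273), and so was Ucp1 with 818 B and 1035 D reads (log2 ratio 0.49, adjusted p = 0.0383), and leaving out BxD female also brought Otop1 to a call (adjusted p = 0.0477).

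The other members of the list with many reads had both alleles. Adrb3 had 19640 B and 19264 D reads, a D share of 49.5%. Prdm16 had 305 B and 211 D reads (log2 ratio -0.41, SE 0.28, adjusted p = 0.399), and Ppara, a nuclear receptor for fatty acids, had 173 and 111 (log2 ratio -0.48, SE 0.43, adjusted p = 0.539). Cidea had 68 B and 79 D reads.

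Reading from D alone was rare. Of 5453 genes with at least 10 exonic reads in each pool, 9, or 0.165%, had 0 B reads, while 173, or 3.17%, had 0 D reads. Kcnk3 was the second of the 9 by D reads. Every one of the 9 rested on 1 counted SNP, as did 123 of the 173. By SNP, 23 of 22031 with at least 10 reads in each pool (0.104%) had 0 B reads and 657 (2.98%) had 0 D reads.

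**Figure D4:**
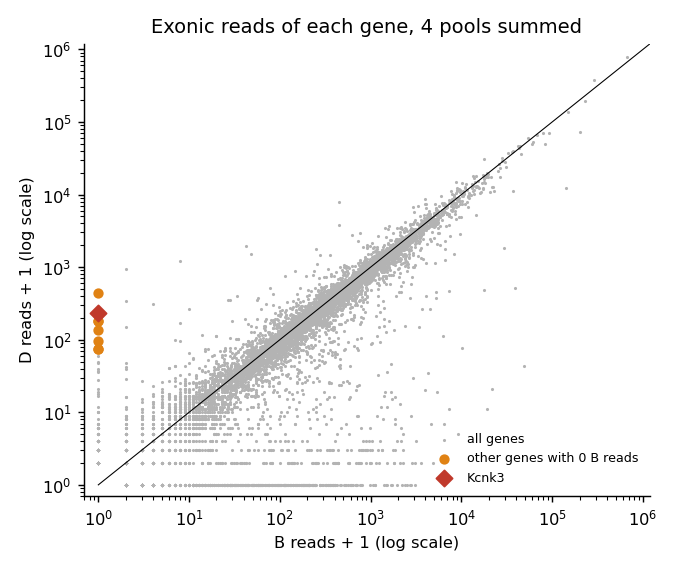
Exonic reads per gene, 4 pools summed, with B reads plus 1 on the horizontal axis and D reads plus 1 on the vertical axis, both on log scales. Each grey point is a gene, the line marks equal counts, and Kcnk3 (diamond) and the 8 other genes with 0 B reads and at least 10 D reads in each pool (orange) stand on the left edge, with 73 to 432 D reads.

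The genes most like Kcnk3, by a D share of 100% over the 4 pools, were few enough to name. 1190005I06Rik on chromosome 8 had 103, 122, 118 and 89 D reads in BxD female, BxD male, DxB female and DxB male. Klhl6, of the kelch family and known from B lymphocytes, had 63, 40, 55 and 24 in the same order, and Itsn2, a scaffold of endocytosis, had 39, 49, 52 and 41. The B alleles around their SNPs are printed on the plus strand of mm9, for comparison with that of Kcnk3, with the base that differs in D in capitals.
1190005I06Rik, chr8:123132589-123132617, C15G in D: ggcgagaagtccttCtgctctggggcctc
Klhl6, chr16:19947206-19947234, A15G in D: tcagggtcccagcaAagcacagtggcaat
Itsn2, chr12:4599994-4600022, A15G in D: tcgaggagcgcgcgAggtcgcgccgggac

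The other 5 were AC163646.2-2 with 215 D reads, Psph, the last enzyme of serine synthesis, with 136, Gtf2i, a transcription factor gene, with 95, the histone gene Hist1h4i with 74, and Rprd2 with 73. Both Psph and Gtf2i lie on chromosome 5 with Kcnk3, at positions 130277430 and 134790568. The SNPs of the 9 genes were in 3′ UTRs (Kcnk3 and 1190005I06Rik), 5′ UTRs (Itsn2 and Gtf2i) and coding sequence (the remaining 5). In the search of mm9, all 50 stretches matched 1 place for 7 of the 9, Kcnk3 among them. The exceptions were AC163646.2-2, for which 82% of stretches with the B base and 78% with the D base matched 1 place, and Hist1h4i, for which 0% and 38% did, so the counts of these 2 are uncertain. Intronic reads were found for 2 of the 9, at 1 SNP each, and went against D alone: 1190005I06Rik had 1 B and 0 D reads and Hist1h4i had 6 B and 15 D reads.

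What a lone D-only SNP says about its gene could be described where a gene had others. Besides the 9, 14 D-only SNPs lay in 8 genes with further exonic SNPs. Of the 14, 5 were in Ifi202a and 3 in Mcpt2. Over the exonic SNPs of each gene that were not D-only, the D share ran from 0 to 99.8%, with a median of 55.8% over the 8 genes. It was over 90% in 2 genes, under 30% in 2, and 45.5 to 64.6% in the other 4. Mcpt2, a protease of mast cells, had 1 B and 496 D reads at its 4 such SNPs. Ttc28, on chromosome 5, had 6420 B and 5697 D reads at 30, and Naglu, a lysosomal enzyme, had 1217 B and 0 D reads at 3. For Kcnk3 there was no other SNP with reads, so it could not be placed along this range.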

How the data were processed

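The deposited values were raw counts of B and D reads per SNP, without normalization. The authors treated mates of polyA RNA-seq pairs as single reads, aligned them with mrsFAST to mm9 with known D variants masked and up to 3 mismatches, passed unmapped reads to TopHat (the submitters' processing notes name TopHat 1), and kept unique matches. The counts do not give the strand of reads. Here, exonic SNPs over 18 bp apart within an exon, 44210 in all, were summed per gene and allele (3353668 to 4254813 reads per pool), and D was compared with B in 8 allele libraries with edgeR 4.0.16 (R 4.3.3; TMM, quasi-likelihood test, threshold 0.05). The SE was the absolute log2 ratio over the square root of F. On simulated counts of 7856 genes edgeR recovered 99% of log2 ratios of 1 and 100% of 2. These shares should not be taken as the power for listed genes with few reads or with uneven levels between pools. Kcnk7, with a log2 ratio of 1.02 on 20 reads, had an SE of 0.77, and Ucp1, on 1853 reads, had an SE of 1.58. The 0 calls among K2P channels and among brown or beige fat genes therefore do not show equal alleles. Each pool is 1 library per allele. Without a block, p-values set the allele difference against the spread of each allele's level between pools, not the spread of the D to B ratio. Adrb3, with a D share of 47.6 to 50.9% in every pool, thus had an SE of 0.38. A gene not called may therefore be one whose level varied between pools.

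The alleles of a pool come from the same animals and pair the libraries. Their deviations from the allele means correlated at 0.643, 0.225, 0.637 and 0.157 over 5308 genes. As in the study, the reported fit has no block. Alternatives were the block, DESeq2 1.42.0, its size factors, 1 library size per pool, at least 10 reads per gene, all exonic SNPs, exonic SNPs by annotation, and each pool left out. Kcnk3 and the gene lists were chosen with earlier results of these data known. Named genes were those with 0 B and at least 10 D reads in each pool, the 5 nearest genes with at least 10 exonic reads on each side, the 4 members with most reads of each list and any called, and every Kcnk3 SNP. Shares have exact Clopper-Pearson intervals. Sequences and gene models came from NCBIM37 (mm9) and GENCODE M1.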

Additional observations from a re-analysis of the deposited data

Results flagged for a closer look

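In 5 of 41 groups of 4 values, 1 pool stood far from the rest, where the gap to the nearest pool over the whole range passed Dixon's 95% critical value, which chance does in about 1 of 20 groups. For the level of Ucp1 this ratio was 0.919 and for that of Otop1 0.882, both with DxB female high. For the level of Ift172, a neighbour of Kcnk3, it was 0.941, with BxD male high at 25.3 RPM against 18.3 to 18.7. For the D shares of Ube3c and Pisd it was 1, since the only D read of each came from 1 pool, BxD female for Ube3c and BxD male for Pisd. A lone read forces this ratio, so the rate of about 1 in 20 does not cover these groups. The values of Kcnk3 did not pass.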

How the results depend on the processing

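Of the values that answer a comparison, 70 kept their call or stayed near their count under an alternative and 9 moved. A change within a set fold counted as near, such as 1046 genes called with DxB male left out, against 1414. The 70 include the D share of Kcnk3, which could not move because B had 0 reads in each pool. With the pool as a block, genes called rose to 2175 and those with D higher to 879, calls among brown or beige fat genes to 2 and among TASK partners to 3. With 1 library size per pool, which moved the median log2 ratio of all genes from -0.02 to -0.15, 236 genes were called with D higher. Leaving out each pool gave 221 to 285 genes with D higher, and 0 to 1 calls among brown or beige fat genes. Among the named genes, 221 values kept their side, 5 gained a call, 6 lost it (all of D5Wsu178e) and 6 changed sign. With a pool left out, Kcnk13 ran from -0.998 to 0.33 and Fam53a from -0.26 to 0.033, and with 1 library size per pool Adrb3 was at -0.030 and S100a10 at -0.014, none of them called. The planned intronic test of Kcnk3 could not be run, as it has no intronic SNP with reads. The count of Kcnk3 rests on 1 SNP, 231 reads and 4 pools, and the exact interval leaves room for a B share of up to 1.58%.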
